A study of Mus musculus with 8 samples.

Results

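Long noncoding RNAs that act in the nucleus or carry small nucleolar RNAs in their introns were examined in microglia, macrophages that live in nervous tissue. The list held 7 genes (Malat1, Neat1, Meg3, Kcnq1ot1, Snhg1, Gas5 and Miat), and 6 of them matched a gene name among the 37447 genes of the table. Kcnq1ot1 matched none and was not analysed here. FFC mice carried Nf1 flox/flox and GFAP-Cre, so that Cre recombinase is driven by the promoter of an astrocyte gene, and FF mice carried Nf1 flox/flox alone. All were C57BL/6 mice of 3 months, and the cells were flow sorted from optic nerve after a Percoll gradient. Each genotype had 4 libraries, of which 2 came from females and 2 from males. The comparison asks whether these RNAs differ in microglia between the genotypes. The labels call the libraries biological replicates without saying whether animals were pooled, and the p-values measure the spread between these libraries.

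Malat1 is one of the most abundant nuclear RNAs of mammalian cells and gathers in nuclear speckles, where splicing factors are stored. Neat1, its neighbour on the chromosome, is the scaffold on which paraspeckles, another kind of nuclear body, are built. Meg3 is expressed from the maternal copy of an imprinted cluster, and Miat is a nuclear RNA best known from neurons. Gas5 and Snhg1 are host genes: their introns are processed into small nucleolar RNAs that guide the modification of ribosomal RNA, while the spliced transcripts are short-lived because nonsense-mediated decay, a surveillance pathway that destroys transcripts with early stop codons, removes them.

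The start regions of 4 members are shown because they set host genes of very unequal level beside the most abundant member and Meg3, a member below the filter on low values. They are RefSeq windows of GRCm38.p6, from 250 bases before to 50 bases after an annotated start, written 5′ to 3′ on the strand of the gene. Capitals mark the TATA box motif TATAAA, the CCAAT box, the E-box motif CACGTG, the cAMP response motif TGACGTCA and the ETS factor motif CCGGAAG on either strand, and a run of at least 5 pyrimidines that begins with C at the start itself.
Gas5, chr1:161034916-161035215, plus strand: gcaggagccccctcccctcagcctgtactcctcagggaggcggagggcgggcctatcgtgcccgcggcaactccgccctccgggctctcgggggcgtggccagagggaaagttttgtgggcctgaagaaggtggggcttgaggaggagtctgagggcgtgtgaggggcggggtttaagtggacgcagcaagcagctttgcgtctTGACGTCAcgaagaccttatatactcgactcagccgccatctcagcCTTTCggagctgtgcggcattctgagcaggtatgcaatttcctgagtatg
Snhg1, chr19:8723237-8723536, plus strand: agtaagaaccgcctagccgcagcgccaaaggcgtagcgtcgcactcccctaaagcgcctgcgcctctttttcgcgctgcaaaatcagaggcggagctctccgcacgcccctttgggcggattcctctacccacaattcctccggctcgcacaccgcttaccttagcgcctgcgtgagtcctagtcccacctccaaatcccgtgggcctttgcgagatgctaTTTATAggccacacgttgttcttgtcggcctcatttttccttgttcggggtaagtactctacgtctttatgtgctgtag
Malat1, chr19:5802623-5802922, minus strand: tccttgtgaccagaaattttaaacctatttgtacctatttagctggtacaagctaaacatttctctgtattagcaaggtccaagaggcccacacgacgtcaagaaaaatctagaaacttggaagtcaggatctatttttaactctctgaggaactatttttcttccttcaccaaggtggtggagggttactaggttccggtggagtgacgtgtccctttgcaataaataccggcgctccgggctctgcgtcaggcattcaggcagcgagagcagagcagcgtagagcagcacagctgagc
Meg3, chr12:109540746-109541045, plus strand: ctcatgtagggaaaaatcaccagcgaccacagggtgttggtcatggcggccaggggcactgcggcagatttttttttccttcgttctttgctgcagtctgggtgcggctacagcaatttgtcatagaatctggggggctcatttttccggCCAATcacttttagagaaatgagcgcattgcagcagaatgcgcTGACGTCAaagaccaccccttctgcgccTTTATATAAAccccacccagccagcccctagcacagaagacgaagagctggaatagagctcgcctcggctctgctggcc
In all, 7 windows of 5 members were available. The palindrome TGACGTCA, bound by cAMP response element factors, stood in 2 of these windows, those of Gas5 and Meg3 printed above, and in 1.79% of all 32851 windows. A start at C followed by a pyrimidine run, the feature of transcripts of the translation machinery and of several host genes, was found in 2 windows (the Gas5 window above and that of Miat) and in 2.51% of all. TATAAA was present in the Snhg1 window, as its reverse complement, and in the Meg3 window, where both orientations overlap (13.6% of all windows). CCAAT was found in the Meg3 window (37.4% of all). The E-box motif was in 0 of the 7 windows and in 7.15% of all, and the ETS factor motif in 0 of the 7 and in 8.86% of all. Such matches are descriptions of these letters only.

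The table gave 1 FPKM value, a fragment count divided by transcript length and by the library's mapped fragments, for each gene in each library, and holds no read depth. The summed FPKM ran from 525184 to 651231 in FFC and from 367760 to 700291 in FF libraries, and 18617 to 24894 genes in FFC and 21057 to 23370 in FF libraries were above 0. The 10 microglia markers summed to 3010 to 5362 FPKM in FFC and 1615 to 4793 FPKM in FF libraries. Xist, expressed from the inactive X chromosome, was at 1.07 to 14.6 FPKM in libraries labelled female and 0.0940 to 0.205 FPKM in those labelled male. FF 2 and FF 4 resembled the others least (median Spearman correlation with the other libraries 0.398 and 0.464), and protein-coding genes took 90.4% of the FPKM of FFC 4, where the other 7 libraries had 58.5% to 72.6%.

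The members lay at very different levels, and the order was led by Malat1 and Gas5 in every library. FPKM is divided by transcript length, and levels of different genes are set beside each other on that basis. No source used here gives the annotation, so the order rests on lengths that are unknown. Over the 8 libraries the median was 317 FPKM for Malat1, 163 FPKM for Gas5, 2.26 FPKM for Neat1, 1.40 FPKM for Snhg1, 0.264 FPKM for Meg3 and 0.0576 FPKM for Miat. Malat1 was above Gas5 in 7 of 8 libraries, with a ratio between 0.896 and 3.65. Gas5 was at least 39.4 times Neat1 in each library. Neat1 exceeded Snhg1 in only 5 of 8 libraries, Snhg1 exceeded Meg3 in 6 of 8, and Meg3 exceeded Miat in 6 of 8, so these neighbours in the order were not separated in every library. Among the genes with a value in all libraries, 97.8% to 99.7% lay below Malat1 and 97.6% to 99.3% below Gas5 in each library. Neat1 and Snhg1 stood above 59.7% to 78.1% and 61.3% to 78.0% of genes, and Meg3 and Miat above 47.2% to 71.4% and 37.9% to 53.4%.

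**Figure D1:**
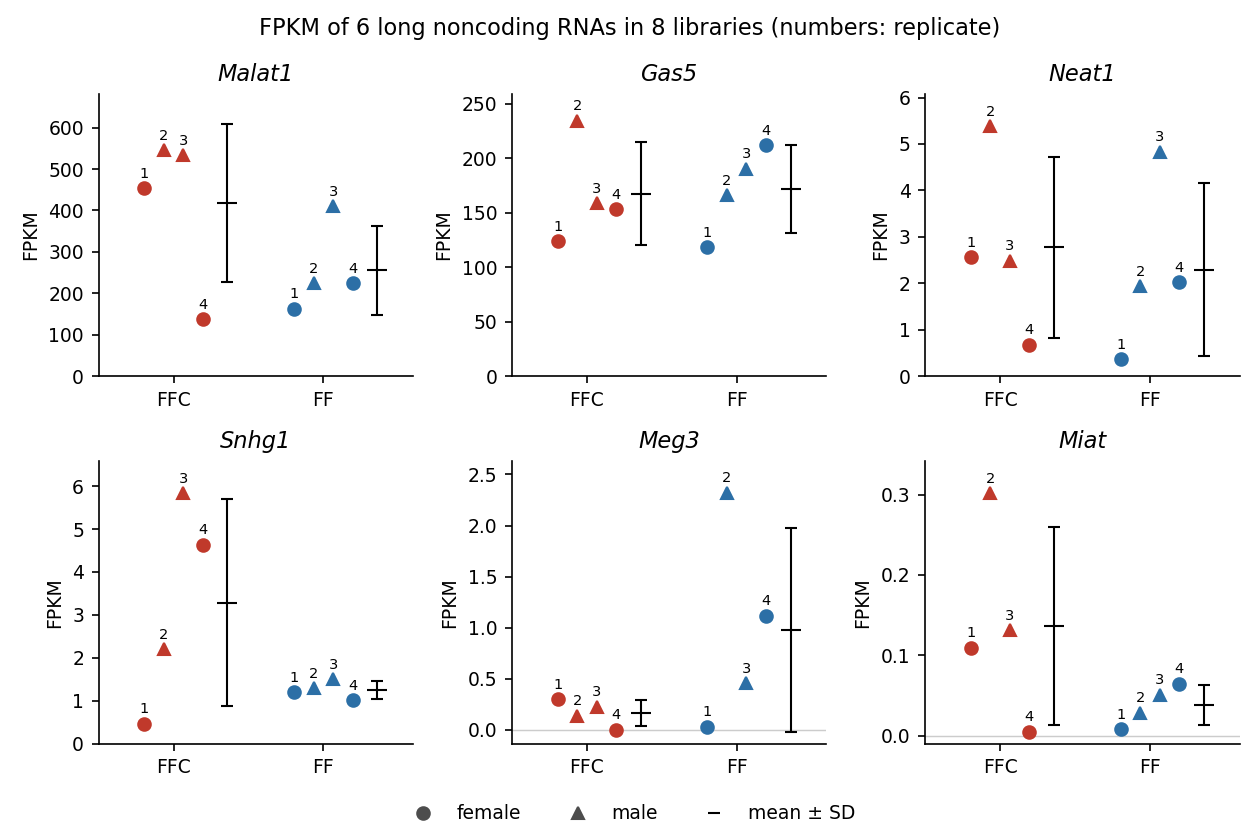
FPKM (y axis, linear, one scale per gene) of 6 long noncoding RNAs in the 4 FFC (left) and 4 FF (right) libraries. Circles are females, triangles males, numbers are replicates and black bars give the mean ± SD (n = 4); the genotypes overlap for each gene, with Malat1 at 137 FPKM in FFC 4 against 453 to 545 FPKM in the other FFC libraries.

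No member differed between the genotypes by the tests used. Differences were tested with limma on log2(FPKM + 1) over 17753 genes that averaged 1 FPKM or more, with Benjamini-Hochberg adjustment. Of the 6 members, 4 passed that filter (Malat1, Gas5, Neat1 and Snhg1), and limma called 0 of them at an adjusted p under 0.05, where the background was 0% of all genes. At an unadjusted p under 0.05 there were 0 of 4 members, beside 6.46% of all genes (1146), and exact permutation tests gave 0 of 6. Of the 6 members, 0 had genotypes without overlap, against 3.05% of tested genes with all FFC libraries above all FF libraries and 1.29% with all below. The mean log2(FPKM + 1) was higher in FFC for 3 of the 4 tested members, beside 56.7% of all tested genes, and their median difference was 0.42, beside 0.19 for all tested genes.

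Malat1 (ENSMUSG00000092341, chromosome 19, 5795690 to 5802671 in mm9) was measured at 453, 545, 533 and 137 FPKM in FFC 1 to FFC 4, against 163, 225, 410 and 225 FPKM in FF 1 to FF 4. Of the FFC libraries, 3 lay above every FF library and FFC 4 lay below them all. The mean was 417 ± 191 FPKM in FFC and 256 ± 107 FPKM in FF (SD, n = 4 each). The log2 difference was 0.60 ± 0.56 (SE), with a limma adjusted p of 0.765 and an exact two-sided permutation p of 0.343. Relative to the median of all tested genes the difference was 0.42. Without FFC 4 it was 1.07 (limma adjusted p = 0.864). The 3 FFC libraries then had 453 to 545 FPKM and the 4 FF libraries 163 to 410 FPKM. The exact two-sided permutation p was 0.0571, as low as 3 against 4 libraries allow. That p is fixed by leaving out the only FFC library not above every FF library, so no conclusion is drawn from it. Snhg1 without FFC 1, Meg3 without FF 1 and Miat without FFC 4 gave the same exact p.

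A predicted gene of the table, Gm20417 (chromosome 19, 5797562 to 5798549 in mm9), lies inside Malat1, and the files give no strand, so fragments there cannot be told apart. Gm20417 had 64.8, 74.3, 61.5 and 0 FPKM in FFC 1 to FFC 4, and 0.128, 29.9, 87.5 and 30.9 FPKM in FF 1 to FF 4. It was thus at or near 0 in FFC 4 and FF 1, the libraries with the least Malat1. Weighted by the lengths of both loci (988 and 6982 bases), it made up 0% to 1.98% of the sum in FFC and 0.0111% to 2.94% in FF libraries.

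Neat1 (ENSMUSG00000092274, chromosome 19, 5824708 to 5845478 in mm9) is separated from the locus of Malat1 by 22036 bases. It had 2.56, 5.38, 2.49 and 0.674 FPKM in FFC 1 to FFC 4, against 0.362, 1.94, 4.83 and 2.03 FPKM in FF 1 to FF 4. The genotypes overlapped over most of their range, and the lowest values were again in FFC 4 and FF 1. The means were 2.78 ± 1.95 FPKM in FFC and 2.29 ± 1.86 FPKM in FF (SD, n = 4 each), with a log2 difference of 0.23 ± 0.82 (SE; limma adjusted p = 0.952; exact two-sided permutation p = 0.657). The direction turned without FFC 2 (-0.08) or FF 1 (-0.14), and the difference was 0.57 without FFC 4 and 0.56 without FF 3. It was 0.08, 0.13 and 0.06 after upper-quartile, quantile and equal-sum scaling.

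Gas5 (ENSMUSG00000053332, chromosome 1, 162964553 to 162968670 in mm9) showed nearly the same mean level in both genotypes. It had 124, 235, 159 and 153 FPKM in FFC 1 to FFC 4, against 118, 166, 190 and 212 FPKM in FF 1 to FF 4. The ranges of the genotypes coincided almost fully. The means were 168 ± 47.1 FPKM in FFC and 172 ± 40.3 FPKM in FF (SD, n = 4 each), and the log2 difference was -0.04 ± 0.49 (SE), with a limma adjusted p of 0.987 and an exact two-sided permutation p of 0.886. Its 95% interval in limma, from -1.09 to 1.01, does not exclude a change of either sign. The sign turned without FFC 1, FF 3, FF 4, or FF 2 and FF 4 together, and the difference was -0.25 with equal sums per library. Zbtb37 shares 428 bases with Gas5, and without strand its fragments there cannot be told apart from those of Gas5.

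Snhg1 (ENSMUSG00000090867, chromosome 19, 8797986 to 8800932 in mm9), also a host gene, was at 0.468, 2.20, 5.83 and 4.63 FPKM in FFC 1 to FFC 4, against 1.20, 1.29, 1.50 and 1.01 FPKM in FF 1 to FF 4. The FFC libraries lay on both sides of the FF libraries, which lay close together. The means were 3.28 ± 2.41 FPKM in FFC and 1.25 ± 0.204 FPKM in FF (SD, n = 4 each). The log2 difference was 0.71 ± 0.79 (SE; limma adjusted p = 0.799; exact two-sided permutation p = 0.257). It was 1.15 without FFC 1, 0.41 without FFC 3 and 0.32 with the month in the sample titles as a covariate, with no call in any of them.

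Meg3 (ENSMUSG00000021268, chromosome 12, 110779211 to 110809936 in mm9) was low and fell below the filter. It had 0.301, 0.139, 0.228 and 0.00257 FPKM in FFC 1 to FFC 4, against 0.0309, 2.32, 0.456 and 1.12 FPKM in FF 1 to FF 4. The highest values were in FF 2 and FF 4, and FF 1 lay within the FFC range. The log2 difference in a fit without the filter was -0.63 ± 0.37 (SE; limma adjusted p = 0.857; exact two-sided permutation p = 0.143). It was -0.34 without FF 2, -0.90 without FF 1 and -0.08 without FF 2 and FF 4 together. With a pseudocount of 0.1 it was -1.51.

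Miat (ENSMUSG00000086878, chromosome 5, 112642248 to 112657968 in mm9) was at the bottom of the order, at 0.110, 0.302, 0.131 and 0.00473 FPKM in FFC 1 to FFC 4, against 0.00762, 0.0284, 0.0506 and 0.0645 FPKM in FF 1 to FF 4. As for Malat1, FFC 4 was the lowest library of all and the other FFC libraries were above every FF library. The log2 difference in a fit without the filter was 0.13 ± 0.07 (SE; limma adjusted p = 0.857; exact two-sided permutation p = 0.171). At such values the scale of log2(FPKM + 1) understates a change, and with a pseudocount of 0.1 the difference was 0.64.

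**Figure D2:**
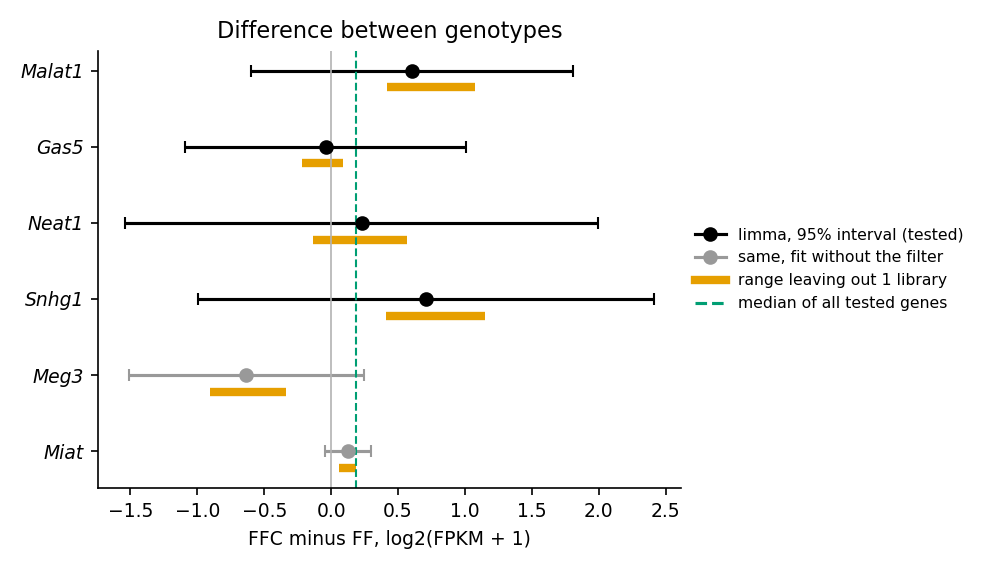
FFC minus FF difference of each gene on the log2(FPKM + 1) scale (x axis) with limma's 95% interval; grey points are from a fit without the filter, orange bars span the values when 1 library is left out, and the dashed line is the median of all tested genes (0.19). Each of the 6 intervals includes 0, and the orange bars of Gas5 and Neat1 cross it.

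The sample titles carry a month, and the genotypes were unequally spread over it, with 1 FFC and 3 FF libraries in Nov and 3 FFC and 1 FF library in Dec. Within Nov and within Dec, the FFC minus FF difference in log2(FPKM + 1) was 0.88 and 0.60 for Malat1, 0.32 and 0.14 for Neat1, and -0.39 and -0.92 for Meg3. For Snhg1 the direction was not the same, at -0.67 in Nov and 1.31 in Dec. Gas5 was lower in FFC within both months (-0.32 and -0.25), and Miat was higher (0.11 and 0.10). With a lone library on one side of each, these differences have no test.

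By sex, the mean log2(FPKM + 1) of all 6 members was lower in females, beside 51.5% of tested genes, and none of these differences passed. Malat1 averaged 245 ± 144 FPKM in females and 428 ± 149 FPKM in males (SD, n = 4 each), a log2 difference of -0.89 (limma adjusted p = 0.953; exact two-sided permutation p = 0.114). Neat1 averaged 1.41 ± 1.06 FPKM in females and 3.66 ± 1.70 FPKM in males, a log2 difference of -0.99 (limma adjusted p = 0.953; exact two-sided permutation p = 0.143 with n = 4 each). The libraries with the least Malat1 and Neat1, FFC 4 and FF 1, were both from females, while FFC 1, also female, had 453 FPKM of Malat1. Limma called 0 of 4 tested members between the sexes and 0 for the interaction of genotype and sex, where the background was 0% of genes in both. At an unadjusted p under 0.05, 0 of 4 members passed between the sexes, beside 3.99% of all genes, and the interaction had an unadjusted p under 0.05 for 3.19% of all genes.

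Malat1, Neat1 and Miat varied together over the libraries. Over 8 libraries, Pearson's r of log2(FPKM + 1) was 0.86 between Malat1 and Neat1 (Spearman's rho 0.86), 0.79 between Malat1 and Miat (rho 0.93) and 0.72 between Neat1 and Miat (rho 0.81). Of the other 17752 tested genes, 0.265% were correlated with Malat1 at least as strongly as Neat1 was, and 0.862% as strongly as Miat was. With Neat1, 1.93% were correlated at least as strongly as Miat was. Miat lay below the filter, at 0.00473 to 0.302 FPKM. Without FFC 4 and FF 1, the libraries farthest from the median of Malat1, r with Malat1 was 0.64 for Neat1 and 0.70 for Miat. Snhg1 did not share this pattern (r = 0.02 with Malat1 and -0.09 with Neat1), nor did it vary with the other host gene, Gas5 (r = 0.14). Gas5 had r = 0.68 with Neat1 and 0.33 with Malat1. These correlations come from values of the same libraries and share their composition.

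The level of these 3 RNAs went with how many genes a library held above 0. FFC 4 and FF 1 had the fewest such genes (18617 and 21057) and the least Malat1, while FFC 2 and FFC 3 had the most (24148 and 24894) and the most Malat1. Over 8 libraries r with that number was 0.78 for Malat1, 0.69 for Neat1 and 0.63 for Miat. The median r of all tested genes with it was -0.02. Of them, 0.715% reached the value of Malat1, 1.75% that of Neat1 and 3.26% that of Miat. Without FFC 3 and FFC 4, the farthest from its median, r was 0.54, 0.76 and 0.66 for Malat1, Neat1 and Miat over 6 libraries. With the number of genes above 1 FPKM instead, r over 8 libraries was lower, at 0.49 for Malat1, 0.42 for Neat1 and 0.39 for Miat. The part of library composition in the values of these RNAs was not tested.

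**Figure D3:**
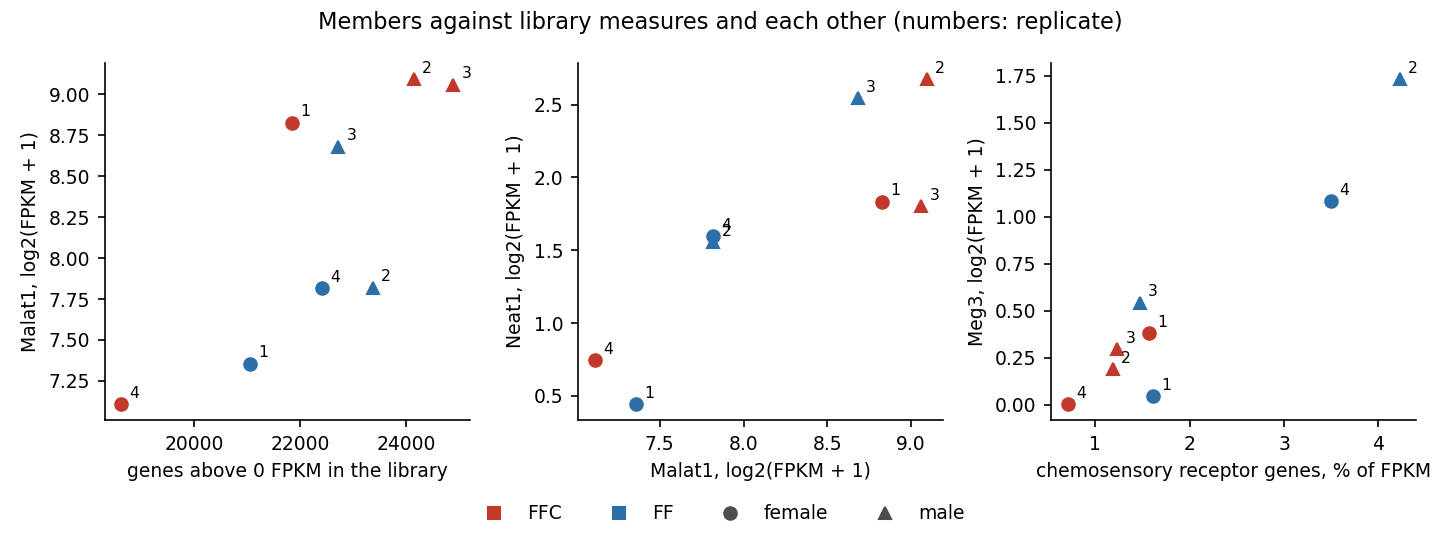
Left, Malat1 against the number of genes above 0 FPKM; middle, Neat1 against Malat1; right, Meg3 against the percent of FPKM from olfactory and vomeronasal receptors, all RNA levels as log2(FPKM + 1), with FFC libraries in red, FF in blue, females as circles and males as triangles. FFC 4 and FF 1 are lowest in the first 2 panels, and FF 2 and FF 4 are highest in the third.

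Meg3 followed another pattern. Its r with the share of chemosensory receptor genes, over 8 libraries, was 0.95. Its highest libraries, FF 2 and FF 4, were those in which olfactory and vomeronasal receptors took the most FPKM, 4.23% and 3.50%. The receptors took 0.708% to 1.57% in FFC and 1.47% to 1.62% in the other FF libraries. Without FF 2 and FF 4 its r with that percent was 0.49 over 6 libraries. FF 2 and FF 4 also had the highest summed FPKM of the 10 measured neuron markers, at 7.70 and 8.71 FPKM. That sum lay between 1.72 and 6.65 FPKM in FFC and between 3.02 and 8.71 FPKM in FF libraries. Over 8 libraries r of Meg3 with it was 0.82, and 0.80 without FF 2 and FF 4. Eno2, a neuronal enolase, had 1.05, 0.980, 0.139 and 0 FPKM in FFC 1 to FFC 4, against 0.170, 4.31, 0 and 2.22 FPKM in FF 1 to FF 4, so that FF 2 and FF 4 were its highest libraries too. Gad1, which makes the transmitter GABA, had 4.31, 0.204, 0.470 and 0 FPKM in FFC 1 to FFC 4, against 0.0385, 0.185, 0.296 and 3.29 FPKM in FF 1 to FF 4, and was highest in FFC 1 and FF 4. Snap25, which encodes a synaptic protein of neurons, was at 0 to 0.0558 FPKM in FFC and 0 to 0.0607 FPKM in FF libraries. FF 2 and FF 4 also had the lowest summed FPKM of the microglia markers (1615 and 2923 FPKM) and the lowest summed FPKM of all genes (391924 and 367760). Over 8 libraries r of Meg3 was -0.85 with the microglia sum, -0.87 with the sum of all genes and -0.88 with the median correlation of a library with the others. In bulk samples fewer cells of a type and less RNA per cell cannot be told apart, and the part of other cells and of library composition in the Meg3 values was not tested.

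Gas5 had the narrowest spread of the members with a sizeable level. Its highest library was 1.98 times its lowest, and its coefficient of variation over the 8 libraries was 23.9%. Of the 763 genes whose mean lay within 2-fold of its own, 7 (0.917%) had a smaller SD of log2(FPKM + 1), and the median coefficient of variation among them was 65.2%. This depended on the scaling. With libraries scaled to equal summed FPKM, the coefficient of variation of Gas5 was 39.9%, and 23.1% of genes of like level then had a smaller one. The coefficient of variation as deposited was 49.7% for Malat1, 70.3% for Neat1, 84.7% for Snhg1, 112% for Miat and 137% for Meg3. For Malat1 27.7% of genes of like level had a smaller SD, for Neat1 6.84% and for Snhg1 7.36%.

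**Figure D4:**
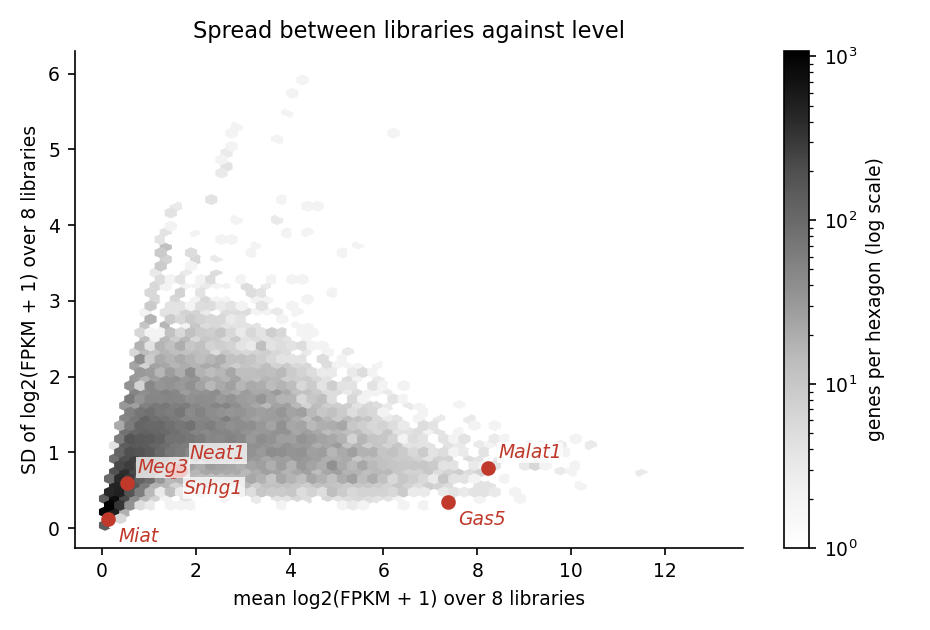
SD of log2(FPKM + 1) over the 8 libraries (y axis) against its mean (x axis) for all genes (grey hexagons, darker where there are more genes, log scale) with the 6 long noncoding RNAs in red. Gas5, with a coefficient of variation of 23.9%, lies at the lower edge of the genes of its level.

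The small nucleolar RNAs inside the host genes had no values. Of the rows of the table, 9 small nucleolar RNAs lie inside Gas5 and 8 inside Snhg1, and all 17 are missing in all 8 libraries. Over the table, 7.24% of rows named as small nucleolar RNAs or microRNAs (152 of 2099) are missing in all 8. The microRNA genes Mir770 and Mir1906-1 inside Meg3 are missing likewise. Host transcript levels here therefore stand without those of the RNAs they carry.

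The other snoRNA host genes gave 0 calls. Of 18 listed, 7 had values and 5 were tested, of which 4 had a higher and 1 a lower mean in FFC (median log2 difference 0.25, beside 0.19 for all tested genes). Snhg9 had 7.28, 7.47, 18.7 and 0 FPKM in FFC 1 to FFC 4 and is listed at 0 in all 4 FF libraries (limma adjusted p = 0.712). Snhg5 had 7.20, 3.15, 2.49 and 5.47 FPKM in FFC 1 to FFC 4, against 0.0843, 1.31, 5.35 and 0.303 FPKM in FF 1 to FF 4 (limma adjusted p = 0.759). Of 23 other long noncoding RNAs, 13 had values and 4 were tested. Each of the 4 was higher in FFC on average (median 0.45, beside 0.19 for all tested genes), and 0 were called. Of all tested genes, 56.7% were higher in FFC. Xist, whose level followed the labelled sex, was among the 4. Pvt1, the neighbour of Myc, averaged 3.34 ± 1.89 FPKM in FFC and 1.07 ± 0.758 FPKM in FF, and Dleu2 averaged 3.76 ± 2.68 FPKM in FFC and 2.12 ± 1.47 FPKM in FF (SD, n = 4 each; limma adjusted p = 0.759 and 0.882).

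The protein partners of these RNAs gave 0 calls as well. The counts and medians that follow stand beside 56.7% of all tested genes higher in FFC and a median difference of 0.19. Of 14 paraspeckle proteins, all were tested, with 9 higher and 5 lower in FFC and a median of 0.53. Pspc1, a core paraspeckle protein, had 87.4, 119.6, 179 and 161 FPKM in FFC 1 to FFC 4, against 82.0, 52.1, 40.4 and 43.5 FPKM in FF 1 to FF 4 (limma adjusted p = 0.729). Each FFC library was thus above each FF library, as for 3.05% of all tested genes. Taf15, an RNA-binding protein found in the same bodies, averaged 51.3 ± 17.8 FPKM in FFC and 27.0 ± 16.5 FPKM in FF (SD, n = 4 each; limma adjusted p = 0.759). Of the 14 entries tested for nuclear speckle and SR proteins, 9 were higher and 5 lower, with a median of 0.13. Srsf2 was entered more than once among them, and Srsf4 fell below the filter. The splicing factor Srsf3 averaged 153 ± 39.6 FPKM in FFC and 80.1 ± 59.0 FPKM in FF (limma adjusted p = 0.759), and the speckle protein Pnn 15.4 ± 4.04 FPKM in FFC and 10.5 ± 5.46 FPKM in FF (limma adjusted p = 0.799). Of 14 nonsense-mediated decay factors, 12 were tested, 9 higher and 3 lower, with a median of 0.53. Their leading members were the exon junction proteins Magoh, at 39.4 ± 12.9 FPKM in FFC and 30.1 ± 42.5 FPKM in FF, and Eif4a3, at 139 ± 138 FPKM in FFC and 64.7 ± 38.5 FPKM in FF (limma adjusted p = 0.759 for both).

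Genes beside the members were not called either. For these counts too, the background was 56.7% of all tested genes higher in FFC and a median difference of 0.19. Of the 9 listed neighbours of Malat1 and Neat1, 6 were tested, 5 higher and 1 lower in FFC, with a median of 0.73. Slc25a45, a mitochondrial carrier, had 231, 65.1, 93.3 and 206 FPKM in FFC 1 to FFC 4, against 12.3, 14.1, 83.4 and 31.4 FPKM in FF 1 to FF 4 (limma adjusted p = 0.652). Its libraries did not follow Malat1, since FFC 4 was among its highest. In the imprinted cluster of Meg3, Rian was at 0 to 0.0845 FPKM in FFC and 0 to 0.213 FPKM in FF libraries, and Mirg at 0.0120 to 0.883 FPKM in FFC and 0 to 1.41 FPKM in FF libraries. Of its 5 listed genes, the 1 tested was Dlk1, with 7.69, 0.455, 0.159 and 0 FPKM in FFC 1 to FFC 4, against 0.0332, 1.54, 0.168 and 5.87 FPKM in FF 1 to FF 4 (limma adjusted p = 0.976). In the cluster of Kcnq1ot1, Kcnq1 itself was at 0 to 0.276 FPKM in FFC and 0.0102 to 0.248 FPKM in FF libraries. Of 11 listed genes of that cluster, 8 were tested, 6 higher and 2 lower, with a median of 0.79. The tetraspanins Cd81 and Tspan32 led them, with Cd81 at 1234 ± 190 FPKM in FFC and 613 ± 274 FPKM in FF (SD, n = 4 each) and Tspan32 at 34.6 ± 36.0 FPKM in FFC and 4.56 ± 3.25 FPKM in FF (limma adjusted p = 0.712 and 0.756).

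The genes whose pattern was most like each member were sought among 8325 named genes averaging 5 FPKM or more, by Pearson's r of log2(FPKM + 1) over the 8 libraries. They were AY036118 and Zfp654 for Malat1 (0.93 for both), Zfp608 and Rasa2 for Neat1 (0.95 and 0.94), and Ttc4 and Lrwd1 for Gas5 (0.93 for both). Tbc1d15 and Zfp688 were most like Snhg1 (0.97 and 0.95), and Rnf185 and Clasp2 were most like Miat (0.96 and 0.93). For Meg3 they were Obox3, a homeobox gene of oocytes, and the olfactory receptor gene Olfr1213 (0.96 for both). Olfr1213 was at 3.93e-08 FPKM in FFC 2 and 0 in the other FFC libraries, and at 0, 38.2, 0.0548 and 7.55 FPKM in FF 1 to FF 4, the order of Meg3 at its upper end. With so many genes and 8 libraries such values are reached by some gene for any pattern, and they are descriptions.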

How the data were processed

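The authors deposited gene FPKM values in 1 table. Named in the submitters' processing notes, with no role or order, are mm9, Cufflinks 2.0.2, Bowtie2 2.0.0, TopHat2 2.0.4 and CASAVA 1.8.2; no source used here gives the annotation. Per the labels' protocols, cDNA was made from total RNA with an Ovation kit. Of 37447 genes, 447 had missing values and were left out. Values were used as log2(FPKM + 1), filtered at a mean of 1 FPKM, and tested with limma 3.58.1 in R 4.3.3 (trend, two-sided, Benjamini-Hochberg, threshold 0.05), which was tested on simulated data; exact permutation tests used the 70 arrangements of 4 and 4 libraries (smallest two-sided p 0.0286). Other steps used matplotlib 3.10.9, scipy 1.17.1, numpy 2.4.6, pandas 2.3.3 and Python 3.11.15. GENCODE M21 gave gene types, by identifier, and no coordinates; starts of the table count from 0 (21680 genes then have the GENCODE length, 420 otherwise) and are printed counted from 1. The members, lists and tests were chosen with earlier results of these data known. Named were all members, up to 2 genes per list with the smallest unadjusted p, and the 2 genes most like each member; a gene that the rule names is not reported here; Snap25, Rian, Mirg, Kcnq1, Gm20417 and Zbtb37 were singled out after their values were seen. Alternatives were other pseudocounts, filters, scalings and variance settings, covariates, the replicate number as a block, and leaving libraries out. Lists of cell type markers other than those of microglia and neurons are given with the other observations.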

Additional observations from a re-analysis of the deposited data

Results flagged for a closer look

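Malat1 in FFC 4, at 137 FPKM against 453 to 545 FPKM in the other FFC libraries, stood apart from its group: its gap to the nearest library was 0.866 of the range of the group on the log2(FPKM + 1) scale, beyond the limit of Dixon's test for 4 libraries. Of the 12 groups of 4 libraries checked (6 genes in each genotype), chance alone flags about 1 in 20. FFC 4 also had the fewest genes above 0 (18617) and the largest percent of FPKM in protein-coding genes (90.4%), and the part of these in its Malat1 value was not tested.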

How the results depend on the processing

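Over the alternatives, no tested member was called between the genotypes, between the sexes or for the interaction. Meg3 and Miat were tested only without a filter on low values, and 2 members were tested at a mean of 5 FPKM. Sex and the interaction were not tested with sex as a covariate, with the replicate block, or without FF 2 and FF 4 together. Malat1, Snhg1, Meg3 and Miat kept their direction in each setting run. Malat1 ranged from 0.35 (quantile normalization) to 1.07 (without FFC 4), Snhg1 from 0.32 to 1.15, Meg3 from -1.51 to -0.08 and Miat from 0.03 to 0.64. The adjusted p of Malat1 ranged from 0.648 to 0.880 over its 21 alternatives. Gas5 turned to 0.090 without FFC 1, 0.02 without FF 3, 0.07 without FF 4 and 0.12 without FF replicates 2 and 4 together, with -0.21 to 0.09 over the settings that leave out 1 library. Neat1 turned to -0.08 without FFC 2 and -0.14 without FF 1, with -0.14 to 0.57 over those settings. The cause was not tested. Over all genes, limma called 0, and 0 to 1 when 1 library was left out: SNORA65 without FFC 4 and Mir15a without FF 1, each singled out by its value. All genes had a median difference of 0.19, which was 0.03 to 0.04 after upper-quartile, quantile or equal-sum scaling. Same-numbered FFC and FF libraries were of the same sex. Their correlations of deviations were -0.05 to 0.03, and those of differently numbered libraries -0.12 to 0.12. Whether the replicate numbers mark a pairing is not given, and such correlations cannot decide it. With the replicate block 0 genes and 0 members were called (Malat1 0.60, limma adjusted p = 0.798). Members below a filter have no value under the stricter one of 5 FPKM. The coefficient of variation of Gas5, 23.9% as deposited, was 39.9% with equal-sum scaling, an alternative chosen after seeing the data. FPKM holds no counts, so what depth allows at the level of Meg3 and Miat is unknown.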

Other observations

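Markers of cells other than microglia were unequal between libraries, and those of neutrophils reached a level of the same order as the microglia markers in FF 1 (2434 and 4360 FPKM summed). The 4 T cell markers summed to 4.99 to 19.1 FPKM in FFC and 20.4 to 129.8 FPKM in FF libraries. All 4 were tested and had a lower mean in FFC, where 56.7% of all tested genes had a higher one. The T cell kinase gene Lck, the largest of the 4 in each FF library, averaged 2.72 ± 2.55 FPKM in FFC and 34.9 ± 30.6 FPKM in FF (SD, n = 4 each; limma adjusted p = 0.546). Only Lck kept the genotypes apart, with each FFC library below each FF library, as for 1.29% of all tested genes. Cd3d, Cd3e and Cd3g overlapped, with Cd3g at 0 to 4.60 FPKM in FFC and 0 to 17.2 FPKM in FF libraries (limma adjusted p = 0.864). The 6 endothelial markers summed to 4.59 to 18.8 FPKM in FFC and 20.2 to 45.1 FPKM in FF libraries. All 6 were tested, with 1 higher and 5 lower in FFC and 0 called. Pecam1 was at 3.86 ± 5.65 FPKM in FFC and 11.0 ± 8.43 FPKM in FF (limma adjusted p = 0.759). It overlapped between the genotypes, with 12.3 FPKM in FFC 4 and 4.04 FPKM in FF 4. The 5 neutrophil markers summed to 3.10 to 942 FPKM in FFC and 186 to 2434 FPKM in FF libraries, with 2 of the 5 higher and 3 lower in FFC (median log2 difference -1.90). S100a9 had 2.25, 156, 248 and 2.58 FPKM in FFC 1 to FFC 4, against 1126, 83.2, 64.3 and 129.8 FPKM in FF 1 to FF 4 (limma adjusted p = 0.759). Ly6g had 0, 16.8, 132 and 60.8 FPKM in FFC 1 to FFC 4 and is listed at 0 in all 4 FF libraries (limma adjusted p = 0.651). Astrocyte markers summed to 90.8 to 188 FPKM in FFC and 51.8 to 196 FPKM in FF libraries, most of it Slc1a3 (49.7 to 192 FPKM over the 8 libraries). Oligodendrocyte markers summed to 10.4 to 50.5 FPKM in FFC and 13.0 to 41.9 FPKM in FF libraries, those of their precursors to 0.116 to 3.93 FPKM in FFC and 1.40 to 36.9 FPKM in FF libraries, and mural and fibroblast markers to 4.46 to 15.4 FPKM in FFC and 3.15 to 86.3 FPKM in FF libraries. Over 8 libraries Malat1 had r = -0.63 with the endothelial sum and -0.52 with the T cell sum, and their part in the members' values was not tested.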
